A study of Mus musculus with 2 samples.

Results

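The genes described here encode 10 factors of mRNA cleavage and polyadenylation, among them the pairs Cstf2 and Cstf2t and Papola and Papolb, in which a broadly used gene has a testis paralog. They were chosen by gene symbol from the 23234 genes of the table, and all 10 were found. The RNA came from round spermatids, haploid germ cells that have completed meiosis and not yet elongated, of C57BL/6 mice and was measured by RNA-seq. The library labelled Epc-dKO came from mice deficient for Epc1 and Epc2, genes for subunits of the histone acetyltransferase complex NuA4/TIP60, and the WT library came from wild-type mice. The sources used here do not give the alleles or any Cre driver, the age and number of the animals, or how the cells were isolated. Each genotype had 1 library, so differences could be neither checked against replicates nor tested, and the read depth is unknown.

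Nearly every mRNA is cut downstream of a poly(A) signal and given a poly(A) tail before it leaves the nucleus. The CPSF complex reads the signal and cuts the RNA, CstF binds the sequence downstream of the cut, the cleavage factors CFI and CFII assist in choosing and making the cut, and poly(A) polymerase adds the tail. Male germ cells are known for using alternative poly(A) signals and shorter 3′ ends than most tissues. Cstf2t encodes a testis form of the CstF subunit that binds RNA, and male mice without it are infertile. Papolb encodes a testis poly(A) polymerase that acts largely in the cytoplasm and is needed for spermiogenesis in mice.

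FPKM values, fragment numbers divided by transcript length and by library size, summed to 198081 in the library labelled Epc-dKO and 193611 in the WT library. Epc1 had an FPKM of 13.6 in the library labelled Epc-dKO and 11.4 in the WT library, and Epc2 had 10.5 in the Epc-dKO-labelled library and 7.12 in WT, so neither was lower under the deficient label. Gene-level values include exons outside any deleted part and do not check the label. The measure of difference is a log2 ratio, that of the library labelled Epc-dKO over WT after 1 was added to each FPKM, which shrinks the differences of genes with low values. Genes with a mean FPKM of at least 1 over both libraries were counted as expressed. All 15 listed round spermatid markers were expressed, and their summed FPKM was 749 in the library labelled Epc-dKO and 710 in the WT library. Of these, 12 had a log2 ratio above 0 and 3 below, with a median of 0.08. Only Tssk6 was at least 2-fold higher, with 6.51 in the Epc-dKO-labelled library and 2.55 in WT. The 10 late spermatid markers, Prm1 and Prm2 among them, were at least 2-fold higher in 5 cases and summed to 1985 in the Epc-dKO-labelled library and 760 in WT. Of 15 spermatogonial markers, 11 were expressed and all 11 had a log2 ratio below 0, with sums over the 15 of 20.9 in the Epc-dKO-labelled library and 44.1 in WT. Sertoli markers summed to 9.59 in the Epc-dKO-labelled library and 14.7 in WT over 11 genes. Of these, Fshr was listed at 0 in the WT library. Only 3 of the 11 were expressed, all with log2 ratios below 0. Clu alone had 5.03 in the Epc-dKO-labelled library and 8.29 in WT. Spermatocyte markers summed to 322 in the Epc-dKO-labelled library and 371 in WT over 14 genes. Spata16 alone had 149.8 in the Epc-dKO-labelled library and 150.8 in WT. Of the 14, 11 had a log2 ratio below 0 and 3 above, with a median of -0.18, and Tex101 was at least 2-fold lower. Leydig markers summed to 27.2 in the Epc-dKO-labelled library and 40.3 in WT over 8 genes; of the 7 expressed, 3 had a log2 ratio above 0 and 4 below, with a median of -0.03, and the 2 past 2-fold were Insl3 and Ptgds, both lower. Peritubular markers summed to 43.6 in the Epc-dKO-labelled library and 30.3 in WT over 8 genes, a sum carried by Actg2, with 36.2 in the Epc-dKO-labelled library and 15.3 in WT. The other 4 expressed peritubular markers had log2 ratios below 0, and the median of the 5 was -0.58. The 8 blood and endothelial markers summed to 3.90 in the Epc-dKO-labelled library and 4.84 in WT, with Hbb-b1 and Hba-a1 listed at 0 in both libraries. Only Vwf among them was expressed, with 2.31 in the Epc-dKO-labelled library and 2.60 in WT. Fewer cells of a type and less RNA per cell cannot be told apart in such samples.

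By the log2 ratio with 1 added to each FPKM, none of the 10 cleavage and polyadenylation genes passed 2-fold, but Cstf2 lay at that limit. Without the added 1, its FPKM in the library labelled Epc-dKO was 0.476 of that in WT, past 2-fold. All 10 were expressed. Over all 10438 expressed genes, 2.75% were at least 2-fold higher, 1.88% at least 2-fold lower, and 4.63% past the limit in either direction. Higher genes were 59.4% of those past the limit, but 39.9% of them with a pseudocount of 0.1, 48.7% with 0.5, 34.1% when both libraries were scaled to TPM, which brings 15151 genes over the minimum, and 42.6% at a limit of 1.5-fold. The median log2 ratio of the 10 members was -0.18, with 7 below 0 and 3 above. Over all expressed genes the median was -0.05, the quartiles were -0.34 and 0.24, and 54.4% lay below 0. Of the members, 7 lay within those quartiles, 3 below the lower quartile (Cstf2, Nudt21 and Cpsf1) and 0 above the upper.

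**Figure D1:**
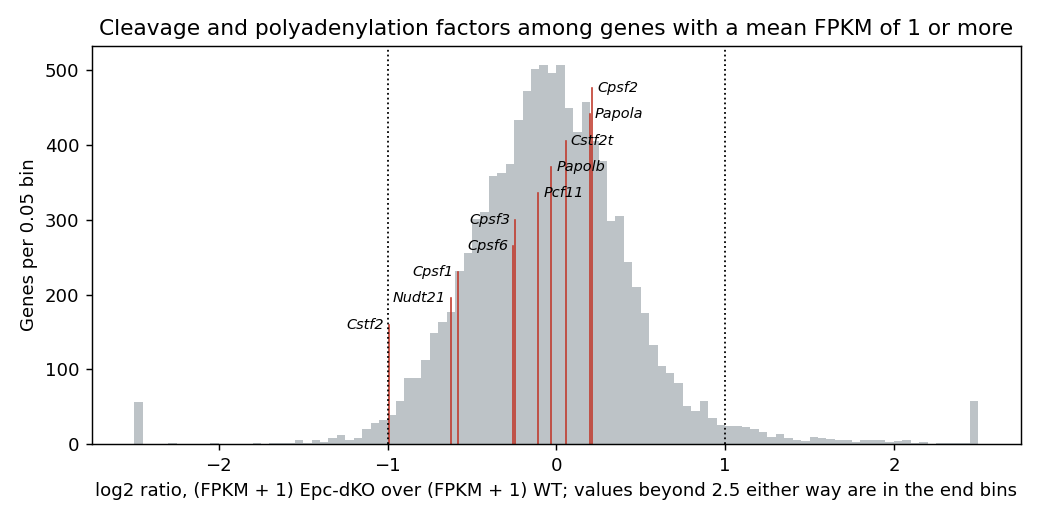
Histogram of the log2 ratio of FPKM + 1, Epc-dKO-labelled library over WT, for the 10438 expressed genes (mean FPKM at least 1), with the 10 members marked by red lines whose heights carry no value; dotted lines mark 2-fold. Cstf2 at -0.99 lies at the left dotted line, Nudt21 and Cpsf1 lie between it and the centre, and the other 7 lie among the bulk of genes.

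The levels of the 10 genes spanned a wide range within each library. The highest was Papolb and the lowest Cpsf6, and the first stood at 167 times the second in the library labelled Epc-dKO and 124 times in the WT library. Papolb, Pcf11 and Cpsf1 were the 3 highest in both libraries, and Cstf2t and Cpsf6 were the lowest pair in both. Cstf2 was at place 6 of the 10 in the library labelled Epc-dKO and at place 4 in the WT library. With 1 library per genotype it cannot be said which neighbours in this order differ. The 10 genes summed to an FPKM of 305 in the library labelled Epc-dKO and 336 in the WT library, and without Papolb to 122 in the Epc-dKO-labelled library and 149 in WT.

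**Figure D2:**
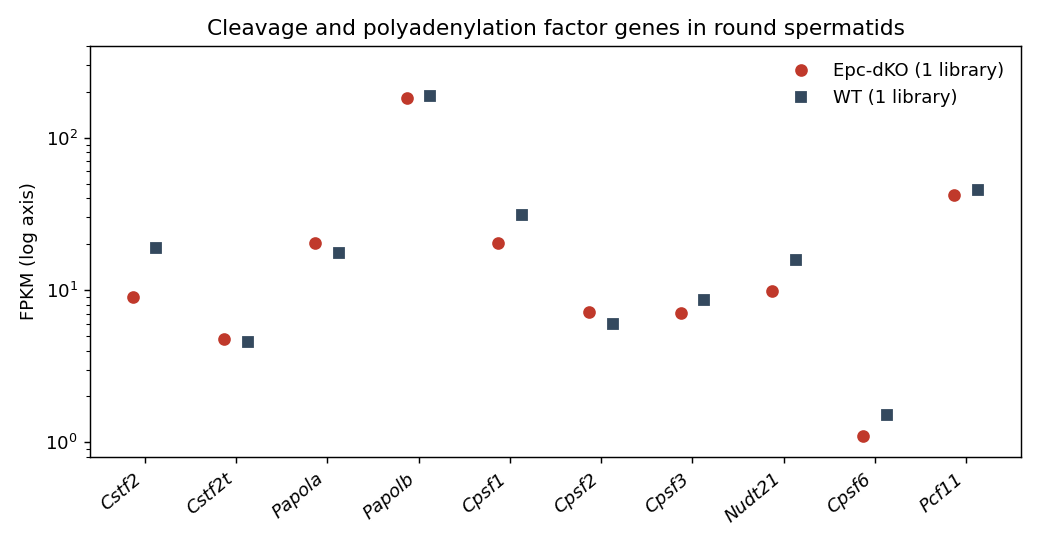
FPKM on a log axis of the 10 genes in the library labelled Epc-dKO (red circles) and the WT library (dark squares), 1 point per library and no error bars because each genotype has 1 library. Papolb stands highest at 183 in the Epc-dKO-labelled library and 187 in WT, Cpsf6 lowest at 1.10 in the Epc-dKO-labelled library and 1.505 in WT, and the widest gap between the libraries is at Cstf2.

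Cstf2, the X-linked gene for the RNA-binding subunit of CstF, had an FPKM of 9.05 in the library labelled Epc-dKO and 19.0 in the WT library. Its log2 ratio of -0.99 falls just inside the 2-fold limit, and the ratio without a pseudocount is 0.476. The call depends on the scale: the log2 ratio was -1.06 with a pseudocount of 0.1, -1.03 with 0.5, -1.09 scaled to TPM, -1.04 scaled to the upper quartile and -1.01 scaled to the sum without the 100 highest genes. Of the 6 alternatives, rescaling to a median ratio of 1 alone kept it inside, at -0.94. Cstf2t, its testis paralog on an autosome, had 4.75 in the library labelled Epc-dKO and 4.53 in the WT library (log2 ratio 0.06). The genes of the other CstF subunits also lay within 2-fold. Cstf1 had 49.8 in the library labelled Epc-dKO and 53.6 in the WT library, and Cstf3, whose product joins the subunits, had 6.16 in the Epc-dKO-labelled library and 5.37 in WT.

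Cstf2 exceeded Cstf2t in both libraries on this per-length scale. It stood at 1.90 times the FPKM of Cstf2t in the library labelled Epc-dKO and 4.19 times in the WT library. Cstf2t made up 34.4% of the summed FPKM of the pair in the library labelled Epc-dKO and 19.3% in the WT library, while the sum itself was 13.8 in the Epc-dKO-labelled library and 23.5 in WT. With 1 added to each FPKM, the log2 of Cstf2t over Cstf2 was -0.80 in the library labelled Epc-dKO and -1.85 in the WT library, a difference of 1.05. The larger share of Cstf2t thus went with a lower Cstf2 and a nearly equal Cstf2t.

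Papolb, the testis poly(A) polymerase gene, was the most abundant member. It had an FPKM of 183 in the library labelled Epc-dKO, at rank 123 of the expressed genes, and 187 in the WT library, at rank 116. Its log2 ratio was -0.03, and under the alternative scalings it ran between -0.08 and 0.02, so it has no stable direction. Papola, the canonical nuclear poly(A) polymerase gene, had 20.2 in the library labelled Epc-dKO and 17.5 in the WT library (log2 ratio 0.20). Papolb thus stood at 9.06 times the FPKM of Papola in the library labelled Epc-dKO and 10.7 times in the WT library, and made up 90.1% of the pair in the library labelled Epc-dKO and 91.5% in the WT library. Papolg, another gene of this family, had 1.48 in the library labelled Epc-dKO and 1.97 in the WT library.

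Both testis paralogs have the single-exon structure of retrogenes, copies made from a processed mRNA. In the GENCODE M21 annotation of GRCm38, Cstf2t and Papolb each have 1 exon, against 14 for Cstf2 and 22 for Papola. The coding sequences of Cstf2t and Cstf2 were identical at 75.5% of 1718 aligned bases, and their transcripts shared no stretch of 36 bases. Those of Papolb and Papola were identical at 85.2% of 1923 aligned bases. Of all stretches of 36 bases in the Papolb transcript 1.21% occurred in Papola, and of those of 100 bases 0% did. Reads that lie wholly in such shared stretches cannot be assigned to 1 gene, and the sources used here do not give the read length. Cstf2t lies on the opposite strand within Prkg1, and Papolb on the same strand within Radil, in both cases with 0 shared exonic bases. Prkg1 had an FPKM of 0.477 in the library labelled Epc-dKO and 0.323 in the WT library, and Radil had 12.8 in the Epc-dKO-labelled library and 16.3 in WT. Cstf2 shares 399 exonic bases with the opposite-strand gene Nox1, which was listed at 0 in the Epc-dKO-labelled library and had 0.0907 in WT.

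The sequences upstream of the paralog genes are given because a retrogene seldom carries its parent's promoter along. They are RefSeq windows of the 250 bases before the annotated start, 5′ to 3′ on the strand of the gene. Capitals mark TGACG or its reverse complement CGTCA, the core of the CRE site bound by CREM, an activator of many spermatid genes.
Cstf2t, GRCm38.p6 chr19:31082591-31082840, plus strand: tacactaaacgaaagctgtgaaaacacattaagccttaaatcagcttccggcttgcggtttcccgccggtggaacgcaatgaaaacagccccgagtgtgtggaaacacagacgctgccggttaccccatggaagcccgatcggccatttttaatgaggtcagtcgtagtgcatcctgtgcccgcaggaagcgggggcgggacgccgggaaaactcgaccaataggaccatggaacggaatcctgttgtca
Cstf2, GRCm38.p6 chrX:134058926-134059175, plus strand: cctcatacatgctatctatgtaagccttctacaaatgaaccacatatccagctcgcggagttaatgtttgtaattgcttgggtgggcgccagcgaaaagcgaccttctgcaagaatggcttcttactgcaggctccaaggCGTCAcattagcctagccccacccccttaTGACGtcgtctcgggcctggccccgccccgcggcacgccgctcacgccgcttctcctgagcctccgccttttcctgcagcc
Papolb, GRCm38.p6 chr5:142530077-142530326, minus strand: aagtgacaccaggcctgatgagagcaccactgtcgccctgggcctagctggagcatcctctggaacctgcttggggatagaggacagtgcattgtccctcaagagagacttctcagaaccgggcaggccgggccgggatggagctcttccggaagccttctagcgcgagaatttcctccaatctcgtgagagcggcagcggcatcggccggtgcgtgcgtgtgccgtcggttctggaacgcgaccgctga
Papola, GRCm38.p6 chr12:105784447-105784696, plus strand: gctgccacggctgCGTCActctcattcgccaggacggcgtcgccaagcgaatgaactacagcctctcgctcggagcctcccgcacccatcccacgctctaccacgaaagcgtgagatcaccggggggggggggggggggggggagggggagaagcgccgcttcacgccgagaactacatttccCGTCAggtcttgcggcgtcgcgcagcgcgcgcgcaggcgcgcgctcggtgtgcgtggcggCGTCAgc

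The windows of the testis paralogs Cstf2t and Papolb held 0 copies of this core, against 2 in Cstf2 and 3 in Papola. Each testis paralog window held 1 copy of CCAAT or its reverse complement ATTGG, and each parent window held 0. The full palindrome TGACGTCA occurred in none of the 4. Of the members, 9 had a window in the table, all but Cpsf1, and 5 of these held the core on either strand, as did 17.9% of 32536 distinct windows. CCAAT occurred in 4 of the 9 and in 33.8% of all windows. The CG dinucleotide count of the 4 windows was 19 for Cstf2t, 17 for Cstf2, 19 for Papolb and 34 for Papola, with a median of 6 over all windows. Over the 9 member windows the count ran from 11 (Nudt21) to 34 (Papola). The core itself contains a CG, so the share of all windows that hold it is not a matched background for the members. These matches describe letters in the windows only.

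Cstf2 is on the X chromosome and the other 9 members are autosomal. X-linked genes are silenced in meiosis, and some are transcribed again in round spermatids. Of 325 expressed X-linked genes, 4.92% were at least 2-fold lower in the library labelled Epc-dKO, and their median log2 ratio was -0.47, against 1.69% and -0.03 for 10021 autosomal genes. Of the 325, 16 had a lower log2 ratio than Cstf2. The 11 expressed spermatogonial markers had a median log2 ratio of -0.75, and 2 of them, Dmrt1 and Crabp1, fell by at least 2-fold. The part of these markers, and of the late spermatid markers given above, in the values of Cstf2, Nudt21 and Cpsf1 was not tested.

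The pair Cstf2t and Cstf2 was set beside 9 other pairs of a testis gene and its X-linked parent. In all 9 the testis gene had the higher FPKM in both libraries, whereas Cstf2t was the lower of its pair in both. Pgk2, the testis gene of the glycolytic enzyme phosphoglycerate kinase, had 74.4 in the library labelled Epc-dKO and 65.9 in the WT library, against 1.22 in the Epc-dKO-labelled library and 1.98 in WT for the parent Pgk1. The closest of the 9 was Rbmxl2, a testis gene of an RNA-binding protein, with 3.12 in the Epc-dKO-labelled library and 3.09 in WT, against 1.01 in the Epc-dKO-labelled library and 2.57 in WT for Rbmx. With 1 added to each FPKM, the Epc-dKO minus WT difference of the log2 testis-to-parent ratio was above 0 in 6 of the 9. Its median was 0.59, against 1.05 for the Cstf2 pair. The parent had a log2 ratio below 0 in 8 of the 9, with a median of -0.42, near the values of all expressed X-linked genes, of which 83.1% lay below 0. In 3 of the pairs the parent (Pdha1, Cetn2 or Gyk) had a mean FPKM under 1. These were the 3 pairs whose difference was not above 0. Without the added 1, the testis gene was a larger multiple of the parent in the Epc-dKO-labelled library in these 3 too. The multiples were 111 in the Epc-dKO-labelled library and 94.2 in WT for Pdha2 over Pdha1. They were 80.2 and 76.0 for Cetn1 over Cetn2, and 267 and 247 for Gk2 over Gyk, in the same order. The 6 pairs with both genes expressed had differences from 0.54 (Utp14b) to 0.85 (Rbmxl2). The added 1 shrinks these more than that of the Cstf2 pair, whose parent is higher. Without it, Rbmxl2 was 3.10 times its parent in the Epc-dKO-labelled library and 1.20 times in WT. Slc25a31 was 6.19 and 2.69 times its parent Slc25a5, and Cstf2t 0.525 and 0.239 times Cstf2. By that measure Rbmxl2 and Slc25a31 rose by a larger factor than Cstf2t, and the other testis genes by a smaller one. With 1 added to each FPKM, the lowest log2 ratio of the 9 parents was that of Rpl10, at -1.02. Without it, Rpl10, Rbmx and Slc25a5 fell by a larger factor than Cstf2, and the other parents did not. Rpl10 had 1.65 in the Epc-dKO-labelled library and 4.38 in WT, and Slc25a5 had 0.685 in the Epc-dKO-labelled library and 1.57 in WT. Sharing of reads within these 9 pairs was not examined.

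**Figure D3:**
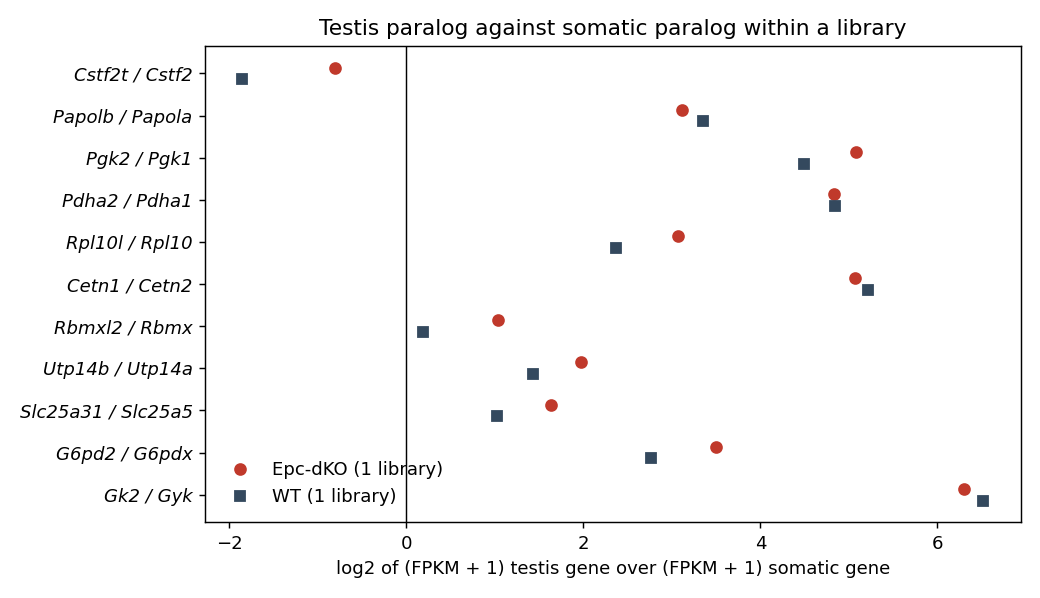
Log2 of (FPKM + 1) of the testis gene over (FPKM + 1) of its somatic paralog in the library labelled Epc-dKO (red circles) and the WT library (dark squares), for Cstf2t, Papolb and 9 other testis genes with an X-linked parent. The Cstf2t pair lies left of 0 at -0.80 in the Epc-dKO-labelled library and -1.85 in WT, and the other 10 pairs lie right of 0 in both libraries.

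The 3 CPSF subunit genes among the members had log2 ratios of both signs, and none passed 2-fold. Cpsf1, for the large scaffold subunit, had an FPKM of 20.4 in the library labelled Epc-dKO and 31.0 in the WT library (log2 ratio -0.58). Cpsf3, for the endonuclease that cuts the RNA, had 7.05 in the Epc-dKO-labelled library and 8.53 in WT (-0.24), and Cpsf2, for its non-catalytic partner, had 7.14 in the Epc-dKO-labelled library and 6.02 in WT (0.21). Of the 3, Cpsf1 had the lowest log2 ratio and the highest level in both libraries, at 2.89 times the FPKM of Cpsf3 in the library labelled Epc-dKO and 3.63 times in the WT library. Among the other subunits, Wdr33, which recognises the poly(A) signal, had 36.8 in the library labelled Epc-dKO and 33.6 in the WT library. Its partner in signal recognition, Cpsf4, had 4.31 in the Epc-dKO-labelled library and 4.53 in WT. The Cpsf4 paralog Cpsf4l had 7.67 in the Epc-dKO-labelled library and 9.44 in WT, above Cpsf4 in both libraries. Fip1l1, which tethers poly(A) polymerase, had 12.6 in each library.

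Genes of CFI, the factor that binds upstream of the cut and steers poly(A) site choice, had log2 ratios below 0. Nudt21, for the small subunit that binds the RNA, had an FPKM of 9.86 in the library labelled Epc-dKO and 15.8 in the WT library (log2 ratio -0.63). Cpsf6, for a large subunit, had 1.10 in the Epc-dKO-labelled library and 1.505 in WT (-0.25), the lowest level of the 10 members in both libraries. Cpsf7, for the alternative large subunit, had 4.93 in the Epc-dKO-labelled library and 6.25 in WT (-0.29). Nudt21 stood at 8.96 times the FPKM of Cpsf6 in the library labelled Epc-dKO and 10.5 times in the WT library. None of these 3 passed 2-fold.

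Pcf11, for the CFII subunit that also links cleavage to transcription termination, had an FPKM of 42.1 in the library labelled Epc-dKO and 45.4 in the WT library (log2 ratio -0.11). Its partner Clp1, an RNA kinase, had 12.5 in the Epc-dKO-labelled library and 9.19 in WT (0.41). Pcf11 overlaps the opposite-strand genes 6430511E19Rik and Gm26944 over 3.08% and 1.74% of its exonic bases. Cpsf3 overlaps the opposite-strand gene Itgb1bp1 over 3.71% of its own, and Itgb1bp1 had an FPKM of 11.1 in the library labelled Epc-dKO and 8.26 in the WT library. Whether strand was used in the quantification is not stated in those sources.

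The genes nearest to the testis paralogs in level were named by the Euclidean distance in log2(FPKM + 1) over the 2 libraries, small RNA, predicted and uncharacterised symbols left out. For Papolb these were Adam32 at a distance of 0.04, with an FPKM of 179 in the library labelled Epc-dKO and 187 in the WT library, Lypd4 at 0.04 and Cep63 at 0.07. For Cstf2t they were Ipo7 at 0.02, Inpp4a at 0.03 and Gnptab at 0.03. With 2 libraries this likeness is one of level and ratio only.

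Around the 10 genes, 96 other genes of 3′ end formation and tail metabolism in 7 lists were examined, of which 88 were expressed. Of these, 2 were at least 2-fold higher and 1 was at least 2-fold lower in the library labelled Epc-dKO, or 3.41% in all against 4.63% of all expressed genes. All 13 other core factors were expressed, 0 passed 2-fold, and their median log2 ratio was 0.00. Rbbp6, for a CPSF-associated ubiquitin ligase, was the most abundant of them, with an FPKM of 110 in the library labelled Epc-dKO and 100.6 in the WT library. Sympk, for the scaffold symplekin, had 50.2 in the Epc-dKO-labelled library and 64.5 in WT (-0.35), and Pabpn1, for the nuclear poly(A)-binding protein, had 42.4 in the Epc-dKO-labelled library and 34.1 in WT.

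Regulators of poly(A) site choice had 18 of 20 expressed, 0 past 2-fold and a median log2 ratio of -0.01. Among them were Ptbp1, for a splicing repressor, with 38.7 in the library labelled Epc-dKO and 44.7 in the WT library, and Celf1, for an RNA-binding protein, with 3.26 in the Epc-dKO-labelled library and 5.98 in WT (-0.71). Termination factors and phosphatases of the polymerase tail had 7 of 10 expressed, 0 past 2-fold and a median of 0.08, with Xrn2, for the exonuclease that degrades the RNA left after cleavage, at 21.6 in the Epc-dKO-labelled library and 21.9 in WT. Integrator, which cuts small nuclear RNAs and carries a paralog of the CPSF endonuclease, had all 14 subunits expressed, 0 past 2-fold and a median of -0.13. Its gene Ints1 had 19.1 in the library labelled Epc-dKO and 38.6 in the WT library, a log2 ratio of -0.98 close to that of Cstf2, while Ints10 had 55.3 in the Epc-dKO-labelled library and 39.3 in WT (0.48). Histone mRNA 3′ end processing had 4 of 6 expressed, 0 past 2-fold and a median of -0.36, all 4 below 0, with the stem-loop binding protein gene Slbp at 13.95 in the Epc-dKO-labelled library and 17.5 in WT.

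The 3 genes past 2-fold were all in the list of non-canonical polymerases and CPEB proteins, whose median was 0.03 over 14 of 15 genes expressed. Papd5, for a nuclear poly(A) polymerase that marks RNAs for trimming, rose to an FPKM of 31.4 in the library labelled Epc-dKO, against 13.6 in the WT library (log2 ratio 1.15). Cpeb3, of the CPEB family of RNA-binding proteins that regulate tail length and translation, rose to 2.64 in the library labelled Epc-dKO, against 0.729 in the WT library (1.08). Fam46b, of a family of non-canonical poly(A) polymerases, fell to 6.92 in the library labelled Epc-dKO, against 18.7 in the WT library (-1.32). Its relative Fam46c was the most abundant gene of the list, with 122 in the library labelled Epc-dKO and 111 in the WT library. Deadenylases, which remove the tail, had all 18 genes expressed, 0 past 2-fold and a median of 0.08, with the scaffold gene Cnot1 at 155 in the Epc-dKO-labelled library and 141 in WT.

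**Figure D4:**
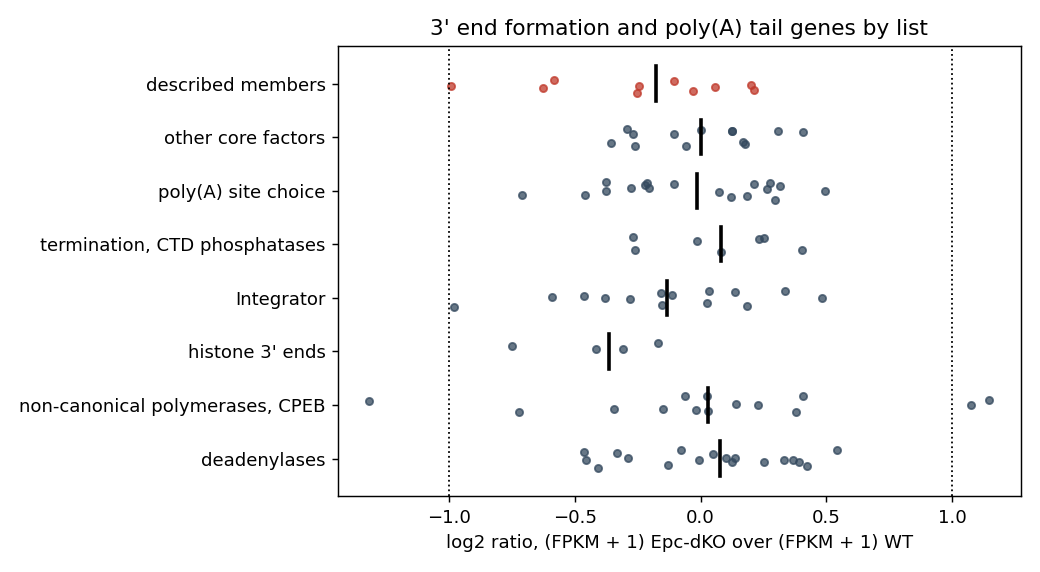
Log2 ratio of FPKM + 1, Epc-dKO-labelled library over WT, for each expressed gene of the 10 members (red) and of 7 other lists (dark), with vertical jitter for visibility, black bars at the list medians and dotted lines at 2-fold. The 3 points beyond the dotted lines are Fam46b, Cpeb3 and Papd5, and the leftmost red point is Cstf2.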

How the data were processed

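The authors deposited 1 table of gene-level FPKM, with a column for each library. The submitters' processing notes name Cufflinks 2.2.1 and the mm9 build, and per the labels' protocols the libraries were made from total RNA with a directional kit and PCR. Not given in the sources used here: the aligner, annotation, strand setting and any scaling between libraries. FPKM depends on the mapped total and on the transcript models, so abundant transcripts can shift all values, and without counts no interval or detection limit can be given. Of 23235 rows, 1 held no gene. Log2 ratios used a pseudocount of 1, expressed genes had a mean FPKM of 1 or more, and the limit was 2-fold. The counting code was run on the WT values with known changes put in and no noise added. Its outcome was set in advance, so it checks the code and not the counts from these libraries. No test was run, since each genotype has 1 library. The members and lists were chosen with earlier results of these data known. The named genes are the members, Epc1 and Epc2, and in each list those past 2-fold, the 2 most abundant and the 2 with the largest ratios, of which the text gives a part; core subunits, marker genes, parents in pairs and overlapping genes outside this rule were chosen after their values were seen. Gene structure and coding identity, computed in place of a planned protein alignment, came from GENCODE M21 and chromosomes and promoters from RefSeq GRCm38.p6, not mm9. Alternatives were other pseudocounts, minimum levels, scalings and a limit of 1.5-fold. Python 3.11.15, NumPy 2.4.6, pandas 2.3.3, Biopython 1.88 and Matplotlib 3.10.9 were used.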

Additional observations from a re-analysis of the deposited data

How the results depend on the processing

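Of 60 values of single members under the 6 alternative pseudocounts and scalings, 55 kept their side of the 2-fold limit, and the other 5 were those of Cstf2 given above, between -1.09 and -1.01. The count of members past the limit was therefore 1 in place of 0 with a pseudocount of 0.1 or 0.5. It was also 1 on the TPM scale, scaled to the upper quartile and scaled to the sum without the 100 highest genes. It was 2 (Cstf2 and Nudt21) at a limit of 1.5-fold. Counts over all expressed genes were 287 higher and 196 lower in the main setting. They rose too with a pseudocount of 0.1 or 0.5, on the TPM scale and at 1.5-fold. Scaled to the upper quartile they were 271 and 224, and without the 100 highest genes 278 and 213. The members are too few to show whether they passed the limit more often than expressed genes as a whole. In alternatives chosen after seeing the data, Papd5, Cpeb3 and Fam46b stayed past the limit under all 6, and Ints1 passed it under 4, at -1.01 with a pseudocount of 0.1, -1.04 on the TPM scale, -1.03 at the upper quartile and -1.003 without the 100 highest genes. Of the members under these 6, Papolb was the only one whose ratio changed sign, to 0.02 at a median ratio of 1. The log2 of Cstf2t over Cstf2 was -0.91 in the library labelled Epc-dKO and -2.04 in the WT library with a pseudocount of 0.1, and in the WT library -1.95 with 0.5 and -2.02 on the TPM scale, where the pseudocount weighs less. The counts of higher and lower genes were 433 and 652 with a pseudocount of 0.1, 545 and 1054 on the TPM scale, where 15151 genes are counted in place of 10438, 166 and 105 at a minimum mean FPKM of 5, where fewer genes are counted, and 837 and 1127 at 1.5-fold, with 364 lower at a pseudocount of 0.5. Medians that moved by more than 0.1 were those of termination factors on the TPM scale (-0.022), histone 3′ end processing without a minimum FPKM (-0.24), and, where the mean FPKM had to reach 5, Integrator (0.085) and non-canonical polymerases (0.19). With that minimum the histone 3′ end list had too few genes for a median. The cause of these shifts in medians was not tested. No paired analysis was possible because there is a single library of each genotype. As the depth is unknown, values of low genes are the least certain, such as those of Cpsf6 and Cpeb3.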
